A study of Mus musculus with 9 samples.

Results

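The genes described here are 10 components of netrin and Slit signalling that guide axons and migrating neurons: the ligands Ntn1, Slit1 and Slit2, and the receptors Dcc, Neo1, Unc5a, Unc5b, Unc5c, Robo1 and Robo2. They were chosen by exact match of the gene symbol in the deposited table, and each of the 10 symbols had a row among the 21210 genes. Their levels were followed across 9 RNA-seq libraries made at embryonic day 14.5 from the lateral part of the cerebral cortex of C57BL/6 mice. All embryos carried reporters for Btg2, a gene switched on in progenitors committed to neurogenesis, and Tubb3, a neuronal tubulin. Sorting gave 3 groups of 3 libraries, namely proliferating progenitors (no red fluorescence), differentiating progenitors (red) and neurons (green). Every library held sorted cells pooled from several embryos of different litters, collected after the meninges and ganglionic eminences had been removed, so a group is a reporter gate and not a pure cell type. The genotype label names a green protein for both reporters, while the titles name a red one for the Btg2 gate, and the groups follow the titles and cell type labels.

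Netrin-1 is a secreted, laminin-related protein. Growth cones that carry Dcc are usually drawn towards it, whereas Unc5 receptors, alone or together with Dcc, mediate repulsion, and neogenin (Neo1) is the close relative of Dcc that also binds the repulsive guidance molecules. Slits are large secreted proteins that repel axons and migrating neurons through Robo receptors. In the embryonic cortex these systems are known for guiding corticofugal and callosal axons and for the migration of neurons, and Robo signalling is also known to act in progenitors.

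Both reporter genes followed their gates. Btg2 stood at 7032 to 9336 normalised read counts in proliferating progenitors, 14022 to 19983 in differentiating progenitors and 2645 to 3390 in neurons. Tubb3 stood at 1158 to 2511, 9711 to 13097 and 39932 to 50230 in the same order. A normalised read count is the authors' read count per gene scaled for library depth and rounded, and the libraries summed to between 17531558 and 22076409 of them, from an estimated 12657785 to 27551358 reads. Proliferating progenitor libraries also held red blood cell transcripts (Hba-a1, Hbb-b1, Hbb-bh1, Alas2), 0.385% to 1.01% of their total against at most 0.00721% in the other 6 libraries. Libraries with the same replicate number deviated together from their group means.

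The RefSeq promoter table of build GRCm38.p6 held 9 transcription start sites for 7 of the 10 genes (not for Dcc, Ntn1 and Slit1), and the deposited values rest on build mm9, so these promoters give sequence context only. The 250 bases upstream of 5 of the starts are printed 5′ to 3′, for Robo1, Robo2 and Slit2. The larger estimated changes of Robo1 and Robo2 lay at different steps, though the difference between steps did not pass the test for Robo2. The level of Slit2 peaked in the middle group. Capitals mark the letters CANNTG, the E-box that proneural bHLH factors can bind, in the Robo promoters, and TATAAA in the Slit2 promoter.
Robo1, chr16:72662899-72663148, plus strand: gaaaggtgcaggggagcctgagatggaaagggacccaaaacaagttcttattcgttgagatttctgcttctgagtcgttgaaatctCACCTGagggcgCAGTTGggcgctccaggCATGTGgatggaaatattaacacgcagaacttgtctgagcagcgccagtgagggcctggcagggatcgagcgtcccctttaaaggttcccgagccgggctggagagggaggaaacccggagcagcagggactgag
Robo2, chr16:75447294-75447543, minus strand: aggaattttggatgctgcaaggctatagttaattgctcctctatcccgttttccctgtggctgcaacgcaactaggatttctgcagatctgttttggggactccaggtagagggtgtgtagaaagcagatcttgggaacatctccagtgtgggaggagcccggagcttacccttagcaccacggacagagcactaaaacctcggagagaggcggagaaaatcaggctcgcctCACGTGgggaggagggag
Robo2, chr16:75092771-75093020, minus strand: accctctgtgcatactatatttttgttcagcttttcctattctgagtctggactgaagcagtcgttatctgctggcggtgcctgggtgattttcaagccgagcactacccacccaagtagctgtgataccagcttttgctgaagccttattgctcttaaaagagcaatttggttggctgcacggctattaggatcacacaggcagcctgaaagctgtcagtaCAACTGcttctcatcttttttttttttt
Robo2, chr16:74411826-74412075, minus strand: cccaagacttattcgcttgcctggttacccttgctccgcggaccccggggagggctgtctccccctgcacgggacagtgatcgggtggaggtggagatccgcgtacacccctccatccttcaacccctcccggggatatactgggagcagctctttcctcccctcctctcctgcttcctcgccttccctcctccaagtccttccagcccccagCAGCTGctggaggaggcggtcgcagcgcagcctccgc
Slit2, chr5:47982905-47983154, plus strand: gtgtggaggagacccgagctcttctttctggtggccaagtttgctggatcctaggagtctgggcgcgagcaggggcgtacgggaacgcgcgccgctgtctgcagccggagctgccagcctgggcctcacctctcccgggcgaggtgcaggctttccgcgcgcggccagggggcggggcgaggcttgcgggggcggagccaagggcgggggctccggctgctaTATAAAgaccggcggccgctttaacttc
Robo1 and Robo2 lie on opposite strands of chromosome 16, and the 3 Robo2 starts use separate promoters. The Robo1 window held 3 matches to CANNTG and each Robo2 window held 1. None of the windows of Neo1, Slit2, Unc5a, Unc5b and Unc5c held a match, and 66.2% of all 32851 promoters held at least 1. Slit2 was the only member start with TATAAA, searched on both strands, which 12.4% of all promoters held. The more specific E-box CAGCTG, which is contained in CANNTG, occurred in 1 of the 9 starts and in 13% of all promoters. CAGATG occurred in 0 of 9 starts and 14.4% of all promoters, and the T-box sequence AGGTGTG in 0 of 9 starts and 5.1% of all promoters. Member promoters ranged from 44.8% GC in 1 Robo2 window to 83.2% in Neo1, beside a median of 52.4% over the table. These matches are letters in a window and were not tested as binding sites.

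Most of these guidance genes were higher in more differentiated cells. Between proliferating and differentiating progenitors (step 1), 8 of the 10 were higher, 0 were lower, and Ntn1 and Neo1 did not pass the test. Among all 15828 genes tested, 13.8% were called higher and 11.1% lower at that step. The 1758 genes called lower became 1060 and 1147 without replicate 2 or 3 of the proliferating progenitors, and 1074 and 1109 without replicate 2 or 3 of the differentiating progenitors. Between differentiating progenitors and neurons (step 2), 8 were higher and 2, Ntn1 and Slit2, were lower, beside 27.6% and 26.4% of all genes. From proliferating progenitors directly to neurons, the same division of 8 higher and 2 lower was found, beside 32.2% and 31.1% of all genes. The median log2 change of the 10 genes was 1.45 at step 1 and 1.44 at step 2, and that of all tested genes was -0.02 and -0.01. Changes are on the log2(value + 1) scale with the standard error of the fit, and a call is an adjusted p under 0.05. The 3 comparisons share libraries with each other, so they are not independent of one another. All 10 genes passed the filter on low values, with 1 of their 90 values, in the lowest Unc5c library, under 10 normalised read counts. The neuron marker sum rose along the same path, from 6909 to 11431 normalised read counts in proliferating progenitors, through 42846 to 51019, to 168268 to 204804 in neurons, with 6 of 6 markers called higher at each step and 0 at 0, and its part in the changes of the guidance genes was not tested. This sum includes Tubb3, the reporter gene of the neuron gate, for which the sort itself selects. The sum of 5 Cajal-Retzius cell markers (Reln, Trp73, Calb2, Lhx5, Ebf3) rose too, from 135 to 204 normalised read counts in proliferating progenitors, through 1174 to 1606, to 17550 to 20552 in neurons. Of these markers 5 were called higher at step 1 and 4 at step 2, where Ebf3 did not pass (log2 change -0.15, adjusted p = 0.604). Reln alone made up 15817, 18933 and 16829 of the sums in neurons. Calb2 was at 0 in replicates 1 and 2 of the proliferating progenitors, and the part of these markers was not tested. The sum of 6 interneuron and ventral lineage markers was also highest in neurons (6934 to 8017), with 1 marker called higher at step 1 and 4 at step 2. Its part was not tested. In such bulk samples, more cells of a type and more RNA per cell cannot be told apart.

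**Figure D1:**
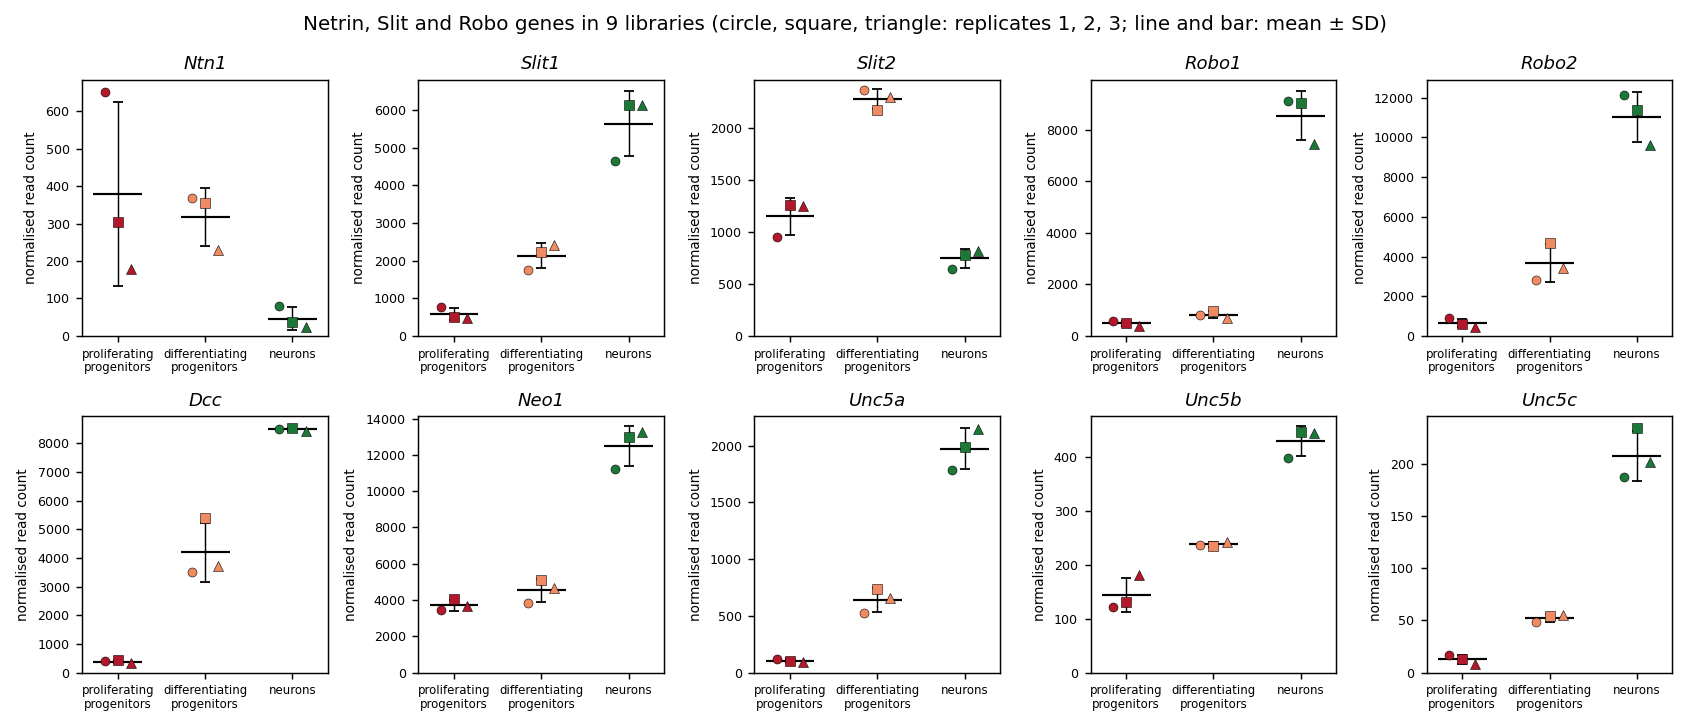
Normalised read counts (y axis, linear, starting at 0) of the 10 guidance genes in the 9 libraries, grouped as proliferating progenitors, differentiating progenitors and neurons (x axis); symbols are replicates 1 to 3, lines are group means and bars are SD. Ntn1 is lowest in the 3 neuron libraries, Slit2 is highest in the 3 differentiating progenitor libraries, and the other 8 genes are highest in neurons.

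Among the ligands, Ntn1 was a progenitor transcript. It stood at 653, 305 and 178 normalised read counts in replicates 1, 2 and 3 of proliferating progenitors, at 368, 356 and 230 in differentiating progenitors, and at 80, 36 and 23 in neurons. The progenitor groups overlapped, and every neuron library lay below all 6 progenitor libraries. At step 1 the log2 change was -0.08 ± 0.53 (adjusted p = 0.955), with a 95% confidence interval from -1.29 to 1.13 that leaves a change of either sign possible. At step 2 Ntn1 fell by 2.91 ± 0.53 on the log2 scale (adjusted p = 0.00134), and by 3.27 in replicates 2 and 3 alone (adjusted p = 2.17e-05).

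Ntn1 varied more among proliferating progenitor libraries than Slit1 or Slit2 did, with 379 ± 246 normalised read counts (SD, n = 3), and replicate 1 held the highest and replicate 3 the lowest value in each group. The neuron values correspond to an estimated 68, 45 and 23 reads. The sum of 6 interneuron and ventral lineage markers (Gad1, Gad2, Dlx1, Dlx2, Dlx5, Lhx6) had the same ordering by replicate in the progenitors, at 976, 245 and 85 in the proliferating group and 2900, 1408 and 442 in the differentiating group. In neurons it was 8017, 6934 and 7014. Dlx1, a transcription factor of ventral progenitors and interneurons, alone stood at 460, 122 and 30 in proliferating progenitors, and 0 of the 6 markers were at 0 in any library. Gad2, Dlx1, Dlx2 and Dlx5 each had this ordering in both progenitor groups. Gad1 (11, 19 and 14) and Lhx6 (4, 12 and 12) did not have it in differentiating progenitors. Lhx6 did not have it in proliferating progenitors either (24, 5 and 7). Across groups Ntn1 and the marker sum moved apart, Ntn1 being lowest and the sum highest in neurons. The part of ventral lineage cells in the spread of Ntn1 was not tested.

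**Figure D2:**
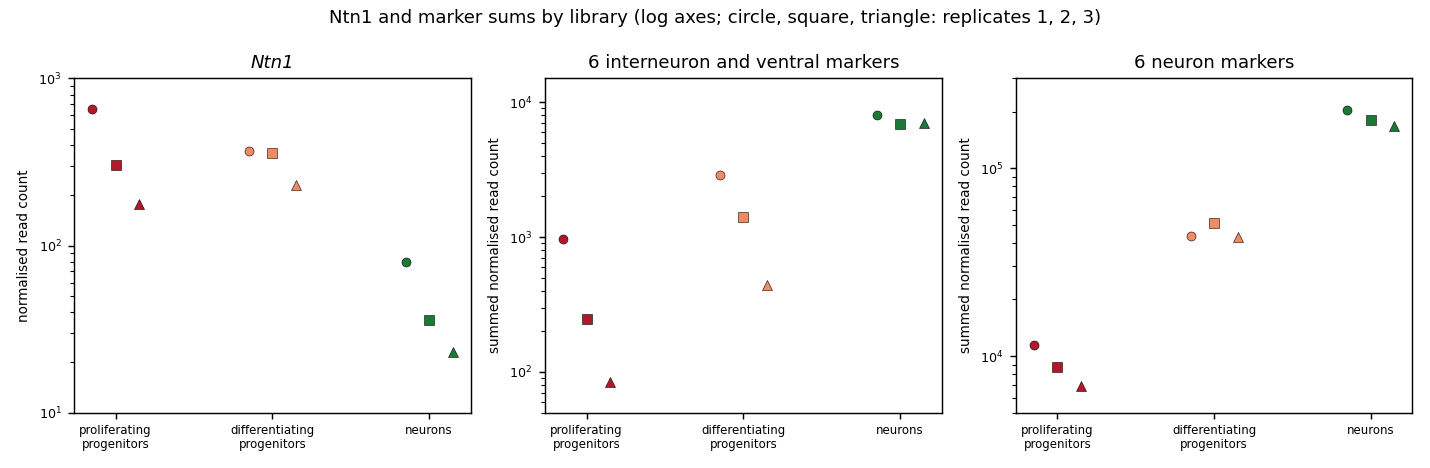
Normalised read counts of Ntn1 (left), summed normalised read counts of 6 interneuron and ventral lineage markers (middle) and of 6 neuron markers (right) on log y axes, by group (x axis), with symbols for replicates 1 to 3. Within both progenitor groups Ntn1 and the interneuron sum are highest in replicate 1 and lowest in replicate 3, while in neurons Ntn1 falls to between 23 and 80 and both marker sums are at their highest.

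Slit1 rose at both steps. Its values were 763, 499 and 465 normalised read counts in proliferating progenitors, 1764, 2228 and 2407 in the differentiating group and 4647, 6142 and 6142 in neurons. The 3 groups did not overlap. The log2 change was 1.91 ± 0.21 at step 1 (adjusted p = 0.000238) and 1.40 ± 0.21 at step 2 (adjusted p = 0.000334).

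Slit2 followed another course, with its highest level in differentiating progenitors. It stood at 946, 1257 and 1247 normalised read counts in proliferating progenitors, at 2365, 2169 and 2295 in differentiating progenitors, and at 646, 776 and 820 in neurons. No library of 1 group reached into another. Slit2 rose by 1.00 ± 0.13 on the log2 scale at step 1 (adjusted p = 0.000765) and fell by 1.61 ± 0.13 at step 2 (adjusted p = 7.85e-06). Its neuron level was also below that of proliferating progenitors, with a log2 change of -0.62 ± 0.13 (adjusted p = 0.00291). The intermediate progenitor marker sum (Eomes, Insm1, Neurog2, Btg2, Gadd45g) was likewise highest in differentiating progenitors, at 54067 to 69565 normalised read counts against 21909 to 25898 in proliferating progenitors and 9508 to 11775 in neurons, with 0 of 5 markers at 0, and its part in the Slit2 change was not tested. Btg2, at 14022 to 19983 of this sum in differentiating progenitors, is the reporter gene of that gate, so the sort itself selects for it. Eomes, Insm1, Neurog2 and Gadd45g were each also called higher at step 1 and lower at step 2.

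Dcc, the netrin receptor that mediates attraction, had the largest step 1 change of the 10 genes. It stood at 399, 426 and 332 normalised read counts in proliferating progenitors, 3505, 5388 and 3704 in the differentiating group, and 8481, 8523 and 8436 in neurons. The neuron libraries differed little from each other, and no groups overlapped. The rise to differentiating progenitors was 10.9-fold as a ratio of means (log2 change 3.42 ± 0.16, adjusted p = 8.14e-06), and the further rise to neurons was 2.02-fold (1.04 ± 0.16, adjusted p = 0.000469).

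Its relative Neo1 was already abundant in proliferating progenitors and rose mainly on the way to neurons. The values were 3460, 4053 and 3651 normalised read counts in proliferating progenitors, 3853, 5106 and 4664 in the differentiating group and 11233, 12994 and 13273 in neurons. The progenitor groups overlapped at step 1, while the neuron libraries all lay above them. The step 1 log2 change of 0.28 ± 0.12 did not pass (adjusted p = 0.132), whereas with the replicate number as a block the same change passed (adjusted p = 0.00267), as it did in replicates 2 and 3 alone (adjusted p = 0.0101) and without replicate 1 of the differentiating progenitors (adjusted p = 0.031). In the authors' deposited table the Neo1 ratio at this step was 1.22 with an adjusted p of 0.37. At step 2 Neo1 rose by 1.47 ± 0.12 on the log2 scale (adjusted p = 7.5e-06).

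Unc5a, Unc5b and Unc5c, receptors that bind netrin-1 and mediate repulsion, each rose at both steps, at very different levels. Unc5a went from 118, 103 and 94 normalised read counts in proliferating progenitors to 528, 734 and 662 in the differentiating group and 1787, 1986 and 2149 in neurons. Its log2 change was 2.59 ± 0.15 at step 1 (adjusted p = 1.42e-05) and 1.63 ± 0.15 at step 2 (adjusted p = 1.4e-05). The 3 groups were apart in every library.

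Unc5b, which also serves as an endothelial receptor, had a smaller change at each step than Unc5a and Unc5c, a difference that was not tested. It stood at 121, 131 and 181 normalised read counts in proliferating progenitors, 237, 235 and 243 in the differentiating group and 399, 448 and 446 in neurons, again without overlap. The log2 change was 0.74 ± 0.16 at step 1 (adjusted p = 0.0088) and 0.85 ± 0.16 at step 2 (adjusted p = 0.00149). The sum of 6 endothelial and mural markers moved the opposite way, at 464, 597 and 891 normalised read counts in proliferating progenitors, 305, 309 and 332 in the differentiating group and 33, 48 and 80 in neurons. In proliferating progenitors replicate 3 was highest for both, and at 0 was 1 marker value, that of Cldn5 in replicate 1 of the neurons. Pdgfrb made up 319, 407 and 470 of the sums in proliferating progenitors. Kdr alone had a higher mean in differentiating than in proliferating progenitors (133 against 108, adjusted p = 0.535). Of the 6 markers, 2 were called lower at step 1 and 3 at step 2, beside 11.1% and 26.4% of all genes. The meninges marker sum likewise rose with replicate number in proliferating progenitors (138, 425 and 1431) and was lowest in neurons (11, 15 and 37). The part of endothelial, mural or meningeal cells in the Unc5b values was not tested.

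Unc5c was the lowest of the 7 receptors among the 10 genes. It stood at 17, 13 and 8 normalised read counts in proliferating progenitors, which is an estimated 12, 14 and 10 reads, at 48, 54 and 55 in differentiating progenitors and at 187, 234 and 202 in neurons. The groups did not overlap, and the first group rests on so few reads that its level is imprecise. The log2 change was 2.02 ± 0.26 at step 1 (adjusted p = 0.000666) and 1.96 ± 0.26 at step 2 (adjusted p = 0.000188).

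Of the Slit receptors, Robo1 rose mainly at step 2, while Robo2 had its larger estimated change at step 1. For Robo2 the difference between the steps did not pass the test (adjusted p = 0.149). Robo1 stood at 576, 504 and 365 normalised read counts in proliferating progenitors, 809, 964 and 710 in the differentiating group and 9112, 9046 and 7444 in neurons. The progenitor groups were close but apart, and neurons were far above both. Robo1 rose by 0.79 ± 0.18 on the log2 scale at step 1 (adjusted p = 0.0118) and by 3.37 ± 0.18 at step 2 (adjusted p = 5.34e-07), which is 1.72-fold and 10.3-fold as ratios of means. Without replicate 2 of the differentiating progenitors the step 1 call was lost (0.68, adjusted p = 0.051).

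Robo2, the second Slit receptor, stood at 877, 594 and 462 normalised read counts in proliferating progenitors, at 2840, 4704 and 3435 in differentiating progenitors, and at 12122, 11374 and 9646 in neurons. The groups did not overlap. The log2 change was 2.52 ± 0.25 at step 1 (adjusted p = 0.000143) and 1.62 ± 0.25 at step 2 (adjusted p = 0.000419). From proliferating progenitors to neurons Robo1 rose by 4.16 ± 0.18 and Robo2 by 4.14 ± 0.25 on the log2 scale (adjusted p = 8.92e-08 and 5.89e-07).

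**Figure D3:**
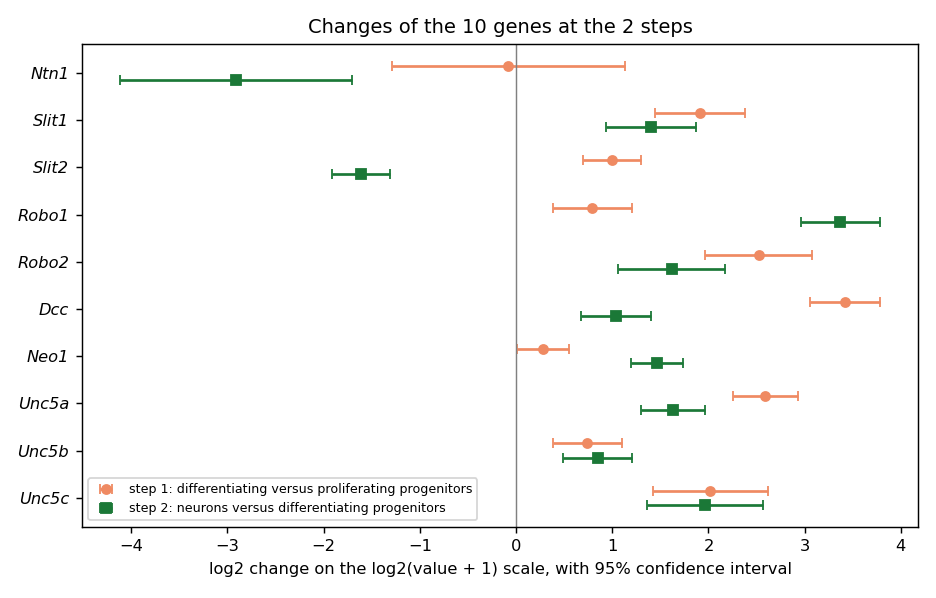
Log2 change (x axis, log2(value + 1) scale) of each of the 10 genes (y axis) at step 1 (circles, differentiating versus proliferating progenitors) and step 2 (squares, neurons versus differentiating progenitors), with 95% confidence intervals. Robo1 and Neo1 have the larger change at step 2, Dcc and Unc5a at step 1, and Slit2 changes sign.

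Whether a gene changed differently at the 2 steps was tested as the step 2 change minus the step 1 change, a contrast added after seeing the data and in which the differentiating progenitor libraries enter both terms. The difference passed the test above 0 for 2 of the 10 genes and below 0 for 4, beside 15.2% and 16.2% of all genes tested. Robo1 (2.58 ± 0.31, adjusted p = 0.000271) and Neo1 (1.19 ± 0.21, adjusted p = 0.00231) rose more at step 2. Slit2 (-2.61 ± 0.23, adjusted p = 5.02e-05), Dcc (-2.38 ± 0.28, adjusted p = 0.000224), Unc5a (-0.96 ± 0.26, adjusted p = 0.0187) and Ntn1 (-2.83 ± 0.92, adjusted p = 0.0447) had the lower value at step 2. The calls of Unc5a and Ntn1 were both lost without replicate 2 of the differentiating progenitors (adjusted p = 0.0898 and 0.138) and without replicate 3 (0.0764 and 0.0686), leaving 2 called below 0, and Ntn1 also lost its call without any 1 of 5 other libraries. For Robo2 the difference was -0.90 ± 0.43 (adjusted p = 0.149), and it passed in replicates 2 and 3 alone (-1.56, adjusted p = 0.00232), with array weights (-1.26, adjusted p = 0.00956) and without replicate 1 of the proliferating progenitors (-1.15, adjusted p = 0.0331). The Slit1 difference of -0.51 ± 0.36 did not pass either (adjusted p = 0.342), and it passed in replicates 2 and 3 alone (-0.86, adjusted p = 0.00102) and with array weights (-0.74, adjusted p = 0.0262). Unc5b (0.11 ± 0.27) and Unc5c (-0.05 ± 0.46) did not pass, with adjusted p = 0.839 and 0.959.

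Because the genes differ in length, related genes were set against each other per kilobase of the deposited gene length, within each library and without a test. Slit1 made up 40.4% ± 10.4 of the Slit1 and Slit2 level in proliferating progenitors (SD, n = 3), 55.8% ± 4.73 in differentiating progenitors and 91.1% ± 0.386 in neurons. The Slit balance thus lay on the Slit1 side in every neuron library, at a log2 ratio of 3.29 to 3.43. The progenitor groups overlapped, with a Slit1 share of 52.3% in replicate 1 of the proliferating and 50.4% in replicate 1 of the differentiating progenitors. Robo1 made up 56.8% ± 3.25 of the Robo1 and Robo2 level in proliferating progenitors, 28.5% ± 3.90 in differentiating progenitors and 57.2% ± 0.690 in neurons. Its share was therefore lower in the middle group than in the groups on either side, which did not overlap it. Before the division by length, Robo2 was above Robo1 in every library. Which of them leads in proliferating progenitors and neurons thus depends on the deposited lengths of 9547 bases for Robo1 and 16532 for Robo2. Dcc made up 8.67% ± 0.937 of the Dcc and Neo1 level in proliferating progenitors, 45.6% ± 3.52 in differentiating progenitors and 38.4% ± 2.18 in neurons. Unc5a exceeded Unc5c per kilobase in every library, with a mean log2 ratio of 4.66 in proliferating progenitors, 5.15 in differentiating progenitors and 4.80 in neurons. Unc5b made up 95.7% ± 2.13, 90.5% ± 0.590 and 81.2% ± 1.15 of the Unc5b and Unc5c level in the same order, the first resting on the low Unc5c counts.

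**Figure D4:**
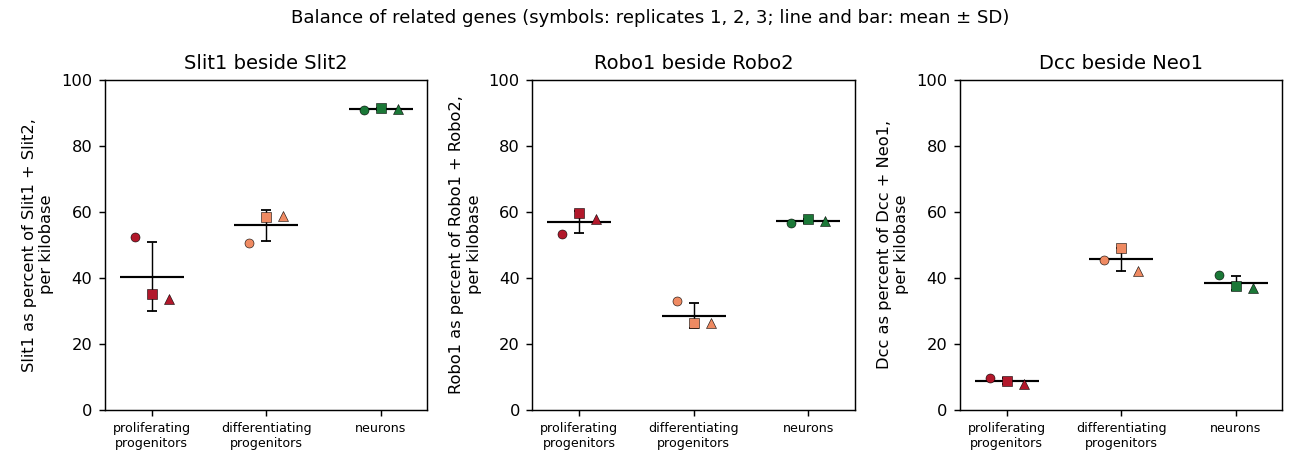
Share of the first gene in the summed level per kilobase of 2 related genes (y axis, percent, 0 to 100) for Slit1 beside Slit2, Robo1 beside Robo2 and Dcc beside Neo1, by group (x axis); symbols are replicates 1 to 3, lines are means and bars are SD. The Slit1 share overlaps between the progenitor groups and is about 91.1% in neurons. The Robo1 share dips to 28.5% in differentiating progenitors, and the Dcc share starts at 8.67% in proliferating progenitors.

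In order of level per kilobase, Neo1 led the 10 genes in all 3 groups, with 504 ± 41.0 normalised read counts per kilobase in proliferating progenitors, 615 ± 86.0 in differentiating progenitors and 1692 ± 150 in neurons (SD, n = 3). In proliferating progenitors it was followed by Slit2 (143 ± 21.9), Slit1 (97.2 ± 27.6) and Ntn1 (60.3 ± 39.2), each overlapping the next, then by Robo1, Dcc, Robo2, Unc5a and Unc5b, between 50.4 and 24.7 with every neighbour overlapping. Unc5c stood apart below them at 1.04 ± 0.370. In differentiating progenitors Dcc (521 ± 128) overlapped Neo1, and Slit1 (360 ± 56.1), Slit2 (282 ± 12.3) and Robo2 (221 ± 57.6) came next, Slit2 overlapping Robo2. There Unc5a (154 ± 25.1) overlapped Robo2 and lay above Robo1 (86.7 ± 13.4). Ntn1 at 50.7 ± 12.2 overlapped Unc5b at 40.7 ± 0.711, and Unc5c was lowest at 4.30 ± 0.311. In neurons the order was Neo1, Dcc (1051 ± 5.39), Slit1 (953 ± 146), Robo1 (894 ± 98.9), Robo2 (668 ± 76.8), Unc5a (474 ± 43.5), Slit2 (92.7 ± 11.2), Unc5b (73.7 ± 4.74), Unc5c (17.1 ± 1.97) and Ntn1 (7.38 ± 4.76), and only Slit1 and Robo1 overlapped their neighbour. Without the division by length, 5, 4 and 4 of the 10 genes took another place in the 3 groups.

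The wider pathway list held 38 other genes, 36 of which were tested, while Ntn5 and Robo4 did not pass the filter. At step 1, 18 rose and 4 fell (21 and 8 with the replicate block), and at step 2, 22 rose and 10 fell. Of all 15828 genes tested, 13.8% rose and 11.1% fell at step 1, and 27.6% and 26.4% at step 2. With the replicate block 3793 and 3489 of them rose and fell at step 1. The share of the list that fell was thus near that of all genes at both steps. The 4 list genes that fell at step 1 became 2 without replicate 1 or 2 of the proliferating or replicate 2 or 3 of the differentiating progenitors. Of the 10 other ligands tested, 6 rose and 2 fell at step 1, and 7 rose and 2 fell at step 2. Of the 6 other receptors tested, 3 rose and 0 fell at step 1, and 1 rose and 4 fell at step 2. The median log2 change of the 36 genes was 0.39 at step 1 and 0.58 at step 2.

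The other netrins and Slits moved in different directions. Ntn4, a netrin that binds laminins, fell at both steps, from 1435 ± 224 through 646 ± 79.6 to 101 ± 10.5 normalised read counts (log2 changes -1.15 and -2.66, adjusted p = 0.000723 and 7.9e-07). Ntn3 did not pass at step 1 (-0.30, adjusted p = 0.128) and rose at step 2, from 75 ± 3.61 to 460 ± 36.0 (2.60, adjusted p = 3.51e-07). Slit3 rose from 19.7 ± 9.50 through 46.3 ± 8.51 to 574 ± 194 (1.30 and 3.55, adjusted p = 0.0411 and 5.39e-05), its step 1 call passing under 9 of 19 alternatives (adjusted p up to 0.117), and it was lost without replicate 2 or 3 of the proliferating, any of the differentiating or replicate 2 or 3 of the neuron libraries. Draxin, a secreted protein that binds netrin-1 and Dcc, rose from between 1516 and 2190 normalised read counts in proliferating progenitors and between 4602 and 5258 in differentiating progenitors to between 11325 and 13267 in neurons (log2 changes 1.53 and 1.27, adjusted p = 0.00011 and 5.54e-05).

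Ligands of Neo1, Robo and Unc5 receptors divided as well. Rgma, a repulsive ligand of Neo1, fell from 5588 ± 454 through 3332 ± 1418 to 996 ± 197 normalised read counts (log2 changes -0.82 and -1.68, adjusted p = 0.0477 and 0.000472), with a step 1 call that held under 8 of 19 alternatives (adjusted p up to 0.166) and was lost without any 1 progenitor library other than replicate 1 of the differentiating progenitors, and without neuron replicate 2 or 3. Its relative Rgmb rose from 785 ± 134 through 1745 ± 113 to 3494 ± 590 (1.16 and 0.99, adjusted p = 0.000617 and 0.000411). Nell2, a ligand of Robo3, rose from 723 ± 78.5 through 1759 ± 265 to 8483 ± 1474 (1.28 and 2.26, adjusted p = 0.000448 and 2.37e-06). The FLRT proteins are membrane ligands of Unc5 receptors. Flrt1 rose at step 1, from 393 ± 114 to 2678 ± 42.2 (2.80, adjusted p = 3.33e-05), and stood at 2496 ± 477 in neurons (-0.12, adjusted p = 0.653, and -0.25 with adjusted p = 0.0227 in replicates 2 and 3 alone). Flrt2 stood at 703 ± 173 and 555 ± 111 in the progenitors (-0.33, adjusted p = 0.268, and 0.0186 with the replicate block) and rose to 4623 ± 487 in neurons (3.07, adjusted p = 1.39e-06). Flrt3 rose by 0.51 and 0.62 (adjusted p = 0.0127 and 0.00168), the first call being lost without replicate 2 of the proliferating progenitors (adjusted p = 0.0523).

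Of the other receptors, Unc5d, an Unc5 family member, rose from 206 ± 77.5 to 1933 ± 574 normalised read counts at step 1 (log2 change 3.26, adjusted p = 0.000134) and stood at 3050 ± 647 in neurons (0.68, adjusted p = 0.0992). With the replicate block the step 2 change of Unc5d passed (adjusted p = 0.0126), as it did without replicate 3 of the proliferating progenitors (0.0338) and without replicate 2 of the differentiating progenitors (0.0494). Dscam, an adhesion molecule that also binds netrin-1, rose from 39 ± 15.6 through 250 ± 82.6 to 4258 ± 217 (2.67 and 4.13, adjusted p = 0.000213 and 2.26e-06). Robo3, the divergent member of the Robo family, stood at 309 ± 126, 373 ± 143 and 182 ± 31.1 (0.27 and -0.96, adjusted p = 0.683 and 0.0493), and its step 2 call held under 9 of 19 alternatives (adjusted p up to 0.165), lost without replicate 1 of the proliferating progenitors, replicate 1 or 3 of the differentiating progenitors or any 1 neuron library. The 3 Dcc-related immunoglobulin proteins Prtg, Igdcc3 and Igdcc4 were all lower in neurons than in differentiating progenitors. Prtg stood at 25, 30 and 43, then 70, 42 and 89, then 2, 0 and 0 normalised read counts (step 1 adjusted p = 0.195, step 2 adjusted p = 1.37e-05). Igdcc3 rose from 386 ± 26.5 to 852 ± 113 and fell to 399 ± 19.1 (1.13 and -1.09, adjusted p = 0.000222 and 5.42e-05), with its highest mean, as for Slit2, in the middle group. Igdcc4 stood at 3492 ± 131 and 3491 ± 378 in the progenitors (-0.01, adjusted p = 0.985) and fell to 819 ± 54.6 in neurons (-2.09, adjusted p = 2.34e-07).

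**Figure D5:**
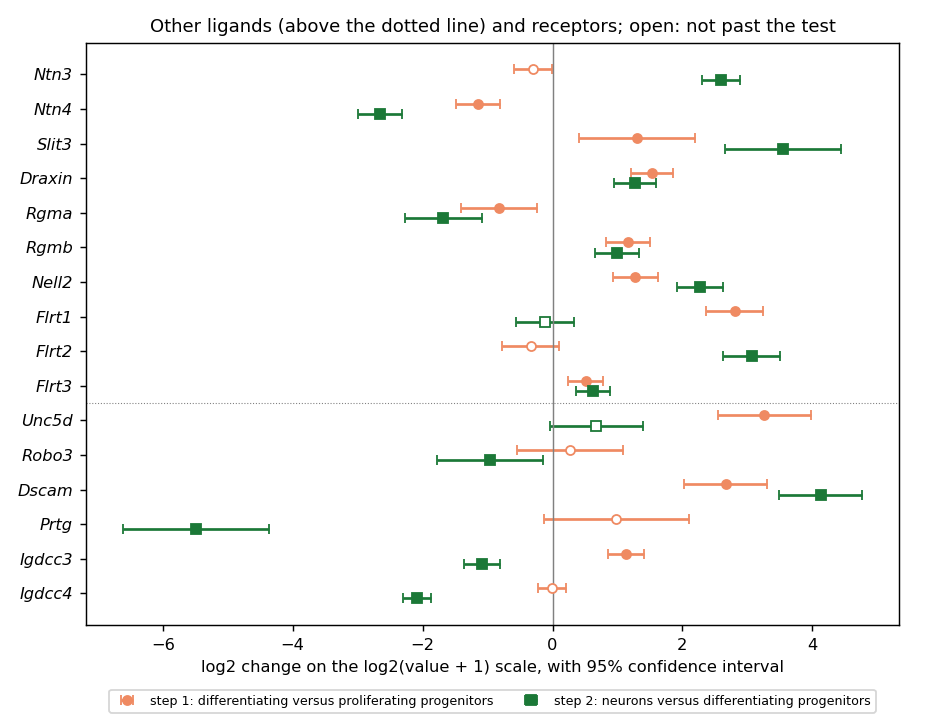
Log2 change (x axis, log2(value + 1) scale) with 95% confidence interval of 10 other ligands (above the dotted line) and 6 other receptors (y axis) at step 1 (circles) and step 2 (squares); open symbols did not pass the test. Ntn4 and Rgma lie below 0 at both steps, and Prtg, Igdcc3, Igdcc4 and Robo3 lie below 0 at step 2.

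Of the 20 effectors and modulators, 9 rose and 2 fell at step 1 (12 and 5 with the replicate block), and 14 rose and 4 fell at step 2. Among all genes tested, 13.8% rose and 11.1% fell at step 1, and 27.6% and 26.4% at step 2. Without the block, the share of effectors that fell was not above that of all genes at either step. With the block, 5 of 20 effectors fell at step 1, beside 3489 of all 15828 genes tested, a slightly larger share. Trim67 and Trim9, ubiquitin ligases that bind Dcc, both rose at step 1. Trim67 went from 42.7 ± 16.8 through 196 ± 15.1 to 8492 ± 718 normalised read counts (log2 changes 2.23 and 5.43, adjusted p = 0.00017 and 1.44e-07), and Trim9 rose by 2.39 at step 1 (adjusted p = 1.13e-05). Pak1, a kinase activated by Rac and Cdc42, rose by 0.83 and 1.75 (adjusted p = 0.00068 and 1.32e-06). The kinase Fyn, which phosphorylates Dcc, rose by 0.52 at step 1 (adjusted p = 0.00246). Srgap1, a GTPase-activating protein bound by Robo1, stood at 605 ± 47.0, 584 ± 55.5 and 5523 ± 322 and rose at step 2 (3.24, adjusted p = 5.01e-08). Dock1, an activator of Rac downstream of Dcc, fell at step 2 from 1742 ± 238 to 84.3 ± 22.0 (-4.38, adjusted p = 3.24e-07).

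Each gene was also compared with the other 15827 tested genes by Pearson's correlation of log2 values over the 9 libraries, as a description only, since the libraries share 3 groups and replicate effects. Nearest to Dcc were Pik3r3 and Mtss1 (r = 0.997 for both), and nearest to Neo1 were Inpp4a and Aak1 (both 0.998). Unc5a was nearest to Slc17a7 (0.999) and Atrx (0.998), Unc5b to 5730522E02Rik (0.994) and Pou2f2 (0.991), and Unc5c to Svop (0.999) and Snap25 (0.998). For the Robo receptors these were Map3k10 (0.999) and Erc2 (0.998) for Robo1, and Ralgds and 6330407J23Rik (both 0.998) for Robo2. Slit1 was nearest to 2010107G23Rik (0.998) and L1cam (0.996), Slit2 to Cdk5rap2 (0.994) and Wnt3a (0.991), and Ntn1 to Zbtb26 (0.988) and Pef1 (0.986). Among the 10 genes themselves, Slit1 and Unc5a had the highest r (0.993), while Robo1 was nearest to Neo1 (0.980) and had 0.890 with Robo2.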

How the data were processed

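RNA of 9 sorted-cell libraries was sequenced. The submitters' processing notes name build mm9, DESeq 1.8.1, bedtools 2.11, BWA and CASAVA 1.8.0, without the role of each. The sources used here do not say whether counting used strand. The authors deposited a score per gene and library, a normalised read count rounded to whole numbers, for genes of Ensembl version 61 with the gene length in bases. Each comparison has a deposited ratio (fold) of the group means and an adjusted p-value. As the values are normalised, no count model was fitted.

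A gene was tested when 3 or more libraries held 10 or more. The log2(value + 1) of the 9 libraries entered 1 limma 3.58.1 fit with an intensity trend (R 4.3.3) and 6 residual degrees of freedom. Benjamini-Hochberg adjustment ran over the 15828 genes tested. The procedure was tested on simulated data with independent noise in each library. Shared deviations of libraries with the same replicate number were not simulated, so the test does not cover them. Reads per library were estimated from the spacing of low values, and p-values measure the spread between these pooled samples. Replicate numbers pair the samples: deviations from the group means correlated at 0.507 to 0.767 in 9 same-number pairs and at -0.640 to 0.428 in 18 others, so a fit with the number as a block was set beside the unblocked one. Alternatives were pseudocounts of 0.5 and 8, no filter, total-sum and trimmed-mean scaling, the block, replicates 2 and 3 alone, no trend, array weights, the 2 groups alone and leaving out each library.

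The genes, lists and tests were chosen with earlier results of these data known. Named were the 10 genes, every tested ligand and receptor of the list, the 4 effectors with the smallest adjusted p at each step, the 2 genes nearest to each member, and Btg2 and Tubb3. Promoter sequences came from RefSeq (GRCm38.p6). The Draxin row carries the symbol 2610109H07Rik.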

Additional observations from a re-analysis of the deposited data

How the results depend on the processing

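All 190 values each of step 2 and of neurons against proliferating progenitors (10 genes, 19 alternatives) kept their direction and their side of the threshold. At step 1, 181 of 190 did. The uncalled Ntn1 change turned positive in replicates 2 and 3 alone (0.30), with array weights (0.031), and without replicate 1 of the proliferating (0.42) or replicate 3 of the differentiating progenitors (0.14), with a range of -0.52 to 0.42 over the left-out libraries; Neo1 passed under 4 alternatives, array weights (adjusted p = 0.0283) included, and Robo1 was lost under 1. The count of genes called higher at step 1 ranged from 7 to 9. With the replicate block 9 genes rose at step 1, and the block changed no call of the 10 genes other than that of Neo1. For the difference of the steps, 159 of 180 values kept direction and call, and the number of genes below 0 ranged from 2 to 5 when single libraries were left out (6 in replicates 2 and 3 alone and also with array weights, 3 with no intensity trend). Uncalled differences changed sign for Unc5c with a pseudocount of 8 (0.27) and without replicate 3 of the proliferating, replicate 3 of the differentiating or replicate 1 of the neuron libraries (range over left-out libraries -0.28 to 0.22), and for Unc5b with total-sum scaling (-0.034) and without replicate 3 of the proliferating progenitors (range -0.065 to 0.22). Other causes of these changes were not tested. Total-sum scaling shifted the median of all genes by -0.07, -0.21 and -0.29 in the 3 comparisons; the split of all genes then went from 2186 higher and 1758 lower to 1880 and 2254 at step 1, from 4368 and 4183 to 3353 and 5589 at step 2, and from 5099 and 4924 to 3869 and 6605 between neurons and proliferating progenitors. The block raised the step 1 counts of all genes to 3793 and 3489, and the lower count was 2651 in replicates 2 and 3 alone, 2734 with array weights and 1060 at the lowest without a single library. Of the other genes named, Igdcc4 at step 1 turned positive with trimmed-mean scaling (0.018), in replicates 2 and 3 alone (0.033), with array weights (0.021), and without replicate 2 of the proliferating or replicate 1 or 2 of the differentiating progenitors (range -0.090 to 0.060), and Robo3 turned negative without replicate 2 of the proliferating progenitors (range -0.028 to 0.63). Groups of 3 limit every test, and Unc5c in proliferating progenitors rests on an estimated 10 to 14 reads per library.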
